A study of Arabidopsis thaliana with 18 samples.

Results

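Late embryogenesis abundant (LEA) proteins were first described as the products that accumulate in seeds late in their development. Most are small, strongly hydrophilic proteins with little fixed structure in solution, and they are held to protect membranes and other proteins while cells lose water. Some are made almost only in maturing embryos, whereas others, several dehydrins among them, are also made in leaves and roots under drought, cold or abscisic acid, the hormone of seed maturation and water stress. The members described here are a list of 53 Arabidopsis thaliana locus codes, taken by code with no cutoff on a measured value. The list was chosen with earlier results of these data known. Of the 53 codes, 52 are among the 30014 genes of the deposited table. These 52 fall into the AtM class (2 genes), LEA_5 (2), the seed maturation protein or SMP class (6), LEA_1 (3), the dehydrins (10), LEA_4 (18), LEA_2 (3), PvLEA18 (2 of the 3 listed), LEA_3 (4) and 2 genes left without a class. AT2G23110, the other PvLEA18 code, was not analysed here.

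The samples were total RNA of rdo5-1, a mutant of REDUCED DORMANCY5, and of NIL-DOG1, a near-isogenic line named after the dormancy gene DELAY OF GERMINATION1 that the labels call wild type, each hybridised to Affymetrix AGRONOMICS1 arrays. Each genotype was sampled as siliques 14 days after pollination, as freshly harvested dry seeds, and as seeds imbibed for 6 h, with 3 arrays in each of the 6 groups and 18 in all. The plants grew without treatment under 16 h of light and 8 h of dark. The labels name the replicates as biological and give neither the number of plants behind a sample nor the background in which the rdo5-1 allele stands. Values are log2 signals normalized by the authors, and a gene was called higher or lower at an adjusted p under 0.05 in limma's moderated test over all genes.

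RDO5 itself was lower in the mutant at every stage, at 5.08 to 5.89 in rdo5-1 against 6.49 to 6.60 in NIL-DOG1 siliques, 9.44 to 9.64 in rdo5-1 against 10.41 to 10.47 in NIL-DOG1 dry seeds, and 8.43 to 8.48 in rdo5-1 against 9.79 to 9.81 in NIL-DOG1 imbibed seeds. Replicate arrays correlated at 0.99 to 0.995 over all genes, and the array medians ran between 4.03 and 4.35. A silique holds the fruit wall as well as its seeds: the mean of 5 silique wall markers was 3.35 to 3.45 in dry seeds, against 5.97 to 6.21 in siliques, and that of 5 green tissue markers 4.77 to 5.12 against 10.50 to 10.66. The mean of 5 seed markers (the storage protein genes CRA1, CRU3 and SESA3, the oil body gene OLEO1 and the peroxiredoxin gene PER1) was 13.90 to 13.99 on all arrays, close to the highest value of any gene, 14.67. Within it PER1 was called higher in dry seeds than in siliques (0.52 in rdo5-1 and 0.56 in NIL-DOG1) and SESA3 lower (-0.18 and -0.26). In such bulk samples fewer cells of a type and less RNA per cell cannot be told apart, and the part of the wall in the stage differences below was not tested.

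The family as a whole divided sharply between siliques and seeds, while it differed little between the genotypes. Against siliques, rdo5-1 dry seeds had 31 members higher, 10 lower and 11 that did not pass, and NIL-DOG1 dry seeds had 32 higher, 13 lower and 7 that did not pass. Over all genes 27.2% were called higher and 25.7% lower in rdo5-1, and 27.4% and 26.6% in NIL-DOG1. The median change of the 52 members was 1.66 log2 units in both genotypes, against 0.064 in rdo5-1 and 0.05 in NIL-DOG1 for all genes. The same 31 members rose and the same 10 fell in both genotypes, and no member was called in opposite directions. The 31 changes ran between 0.82 and 8.98 with a median of 4.26 in rdo5-1, and between 0.82 and 9.50 with a median of 3.96 in NIL-DOG1, and 15 members exceeded 4 log2 units in both. The 10 that fell ran between -4.17 and -0.47 in rdo5-1 and between -4.25 and -0.84 in NIL-DOG1.

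Both AtM genes, M17 and M10, are neighbours on chromosome 2 of the TAIR10.1 assembly and encode proteins found in Arabidopsis seeds. M17 measured 12.94, 12.95 and 13.05 in rdo5-1 dry seeds against 3.61, 3.89 and 4.52 in rdo5-1 siliques, and 13.07, 13.07 and 13.13 in NIL-DOG1 dry seeds against 2.91, 4.57 and 3.30 in NIL-DOG1 siliques. Its change of 8.98 in rdo5-1 (SE 0.30, adjusted p = 1.92e-13) and 9.50 in NIL-DOG1 (SE 0.30, adjusted p = 1.01e-13) was the widest of the family in each genotype. M17 lay below the array median on 4 of the 6 silique arrays, and how much of so low a value is background was not measured. M10 averaged 13.69 ± 0.04 in rdo5-1 dry seeds and 6.31 ± 1.17 in rdo5-1 siliques, and 13.68 ± 0.01 in NIL-DOG1 dry seeds and 5.55 ± 0.31 in NIL-DOG1 siliques (SD, n = 3 each). Its changes were 7.38 and 8.13.

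The LEA_5 class holds EM1 and EM6, the Arabidopsis relatives of the wheat Em protein and long-used readouts of abscisic acid action in the embryo. EM6 gave 13.97, 14.00 and 14.07 in rdo5-1 dry seeds against 4.70, 5.68 and 7.23 in rdo5-1 siliques, and 14.07, 14.11 and 14.09 in NIL-DOG1 dry seeds against 5.08, 5.71 and 4.79 in NIL-DOG1 siliques. EM1 gave 13.46, 13.47 and 13.53 in rdo5-1 dry seeds against 9.98, 11.09 and 9.19 in rdo5-1 siliques, and 13.44, 13.53 and 13.51 in NIL-DOG1 dry seeds against 9.63, 10.65 and 9.27 in NIL-DOG1 siliques. No silique array of either gene reached a dry-seed array. EM6 rose by 8.14 in rdo5-1 and 8.90 in NIL-DOG1, and EM1 by 3.40 and 3.64, with adjusted p of 3.34e-07 or less. The silique arrays were far apart for both genes (SD 0.47 to 1.28), while the dry-seed arrays lay within SDs of 0.02 to 0.05.

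Of the 6 SMP genes, 5 rose in both genotypes. ECP31 and its neighbour AT3G22490 changed most. ECP31 measured 13.56, 13.53 and 13.58 in rdo5-1 dry seeds against 3.95, 4.86 and 5.58 in rdo5-1 siliques, and 13.55, 13.57 and 13.58 in NIL-DOG1 dry seeds against 4.19, 4.37 and 3.99 in NIL-DOG1 siliques. AT3G22490 measured 13.19, 13.24 and 13.20 in dry seeds against 4.84, 4.94 and 5.29 in siliques of rdo5-1, and 13.27, 13.29 and 13.25 in dry seeds against 3.91, 4.61 and 4.39 in siliques of NIL-DOG1. The changes of ECP31 were 8.76 and 9.38, and those of AT3G22490 8.19 and 8.97. ECP31 lay below the array median on 3 silique arrays and AT3G22490 on 1, and the background in such low values was not measured. A second neighbouring pair, AT5G53260 and AT5G53270, rose by 5.17 and 3.05 in rdo5-1 and by 5.07 and 3.63 in NIL-DOG1. RAB28, named after a maize gene responsive to abscisic acid, rose by 2.68 and 2.71. AT5G27980 was the SMP gene that did not pass, at 5.03 ± 0.10 in rdo5-1 dry seeds and 4.89 ± 0.24 in siliques, and 4.94 ± 0.10 and 5.17 ± 0.10 in NIL-DOG1 (SD, n = 3 each).

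All 3 LEA_1 genes rose in both genotypes. LEA18 averaged 13.80 ± 0.02 in rdo5-1 dry seeds and 8.45 ± 0.29 in siliques, and 13.77 ± 0.10 and 8.58 ± 0.44 in NIL-DOG1, with n = 3 and the SD in each case, a change of 5.35 and 5.19. LEA4-5 rose by 4.26 and 3.96, and LEA4-1 by 2.19 and 2.08. LEA4-5 is known to be induced by water deficit in vegetative tissue as well as in seeds.

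The dehydrins, recognised by a lysine-rich motif and known to bind membranes, water or metal ions, split evenly: 5 rose and 5 fell in each genotype, and none failed to pass. The 5 that rose were RAB18, XERO1, LTI30, AT2G21490 and AT4G39130. RAB18, a standard marker of abscisic acid response, measured 14.24, 14.29 and 14.29 in rdo5-1 dry seeds against 11.02, 11.33 and 10.77 in siliques, and 14.26, 14.30 and 14.29 against 11.28, 12.03 and 10.99 in NIL-DOG1. AT4G39130 averaged 10.50 ± 0.06 in rdo5-1 dry seeds and 6.19 ± 0.28 in siliques, and 10.74 ± 0.06 and 5.99 ± 0.40 in NIL-DOG1 (SD, n = 3 each). RAB18 rose by 3.23 in rdo5-1 and 2.85 in NIL-DOG1, and its dry-seed values stood close to the upper end of the scale given above. XERO1 and LTI30, also neighbours in TAIR10.1, rose by 4.71 and 4.39 in rdo5-1 and by 4.54 and 3.83 in NIL-DOG1. AT2G21490 rose by 1.59 in both.

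The 5 dehydrins that fell were ERD14, HIRD11, COR47, ERD10 and AT4G38410. COR47, ERD10 and ERD14 are the acidic dehydrins named for induction by cold or early dehydration, and HIRD11 is a small metal-binding dehydrin. ERD14 measured 5.42, 5.65 and 5.43 in rdo5-1 dry seeds against 9.51, 9.84 and 9.66 in siliques, and 5.42, 5.24 and 5.57 against 9.57, 9.72 and 9.69 in NIL-DOG1. The groups stood far apart, and the changes of -4.17 (SE 0.18, adjusted p = 3.66e-12) and -4.25 (SE 0.18, adjusted p = 2.92e-12) were the widest falls of the family. HIRD11 averaged 4.25 ± 0.29 in rdo5-1 dry seeds and 7.90 ± 0.47 in siliques, and 3.89 ± 0.27 and 7.91 ± 0.64 in NIL-DOG1. COR47 averaged 4.26 ± 0.25 in dry seeds and 7.29 ± 0.33 in siliques of rdo5-1, and 4.01 ± 0.26 and 7.44 ± 0.15 in NIL-DOG1. AT4G38410 averaged 4.52 ± 0.15 in dry seeds and 5.97 ± 0.77 in siliques of rdo5-1, and 4.08 ± 0.25 and 6.20 ± 0.63 in NIL-DOG1 (SD, n = 3 each). COR47 and its neighbour ERD10, which changed by -1.83 in rdo5-1 and -2.11 in NIL-DOG1, moved the same way. ERD10 was below the array median on all 12 seed arrays, HIRD11 on 8, and COR47 and AT4G38410 on 7 each. These falls went in the same direction as those of the silique wall and green tissue markers, each of which was called lower in dry seeds of both genotypes. Of 5 seed coat markers 4 were also called lower in each genotype, with list medians of -1.60 in rdo5-1 and -1.56 in NIL-DOG1 and TT10, a laccase gene of the seed coat, at -6.69 and -6.13. Of 4 endosperm markers, 2 (EPR1 and ICE1) were called higher in each genotype, and 1 (ZOU) was called lower in NIL-DOG1. Beside these marker counts, 25.7% of all genes were called lower in rdo5-1 and 26.6% in NIL-DOG1. The shares called higher were 27.2% and 27.4%. ICE1 is also among the vegetative regulators read below. ZOU and ALE1, the fourth marker, were dim, with group means of 3.25 to 4.13.

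LEA_4, the largest class, had 11 of 18 genes higher in both genotypes. Its 4 widest rises were AT4G36600 (7.98 in rdo5-1 and 7.96 in NIL-DOG1), AT3G53040 (7.74 and 7.65), AT2G42560 (6.09 and 5.94) and AT2G18340 (5.92 and 6.02). AT4G36600 measured 12.77, 12.81 and 12.90 in rdo5-1 dry seeds against 5.11, 4.68 and 4.74 in siliques, and 12.87, 12.84 and 12.83 against 4.63, 4.79 and 5.24 in NIL-DOG1. AT5G44310, AT1G72100, ECP63, AT3G17520 and LEA7 rose by 2.70 to 4.41, AT4G21020 by 1.74 in each genotype, and AT3G15670 by 0.93 in each. ECP63, first found in embryogenic carrot cells as a relative, averaged 11.54 ± 0.07 in rdo5-1 dry seeds and 7.71 ± 0.31 in siliques, and 11.46 ± 0.08 and 7.97 ± 0.42 in NIL-DOG1 (SD, n = 3 each). AT3G15670 was bright in siliques already, at 13.36 ± 0.23 in rdo5-1 and 13.35 ± 0.12 in NIL-DOG1, against a highest value of any gene of 14.67. Whether this limited its rise was not tested.

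The LEA_4 class also holds the pair of chloroplast cold-response proteins COR15A and COR15B, adjacent genes that differed in their calls. COR15B measured 3.22, 3.47 and 2.81 in rdo5-1 dry seeds against 4.40, 4.11 and 4.18 in siliques, and 3.21, 3.39 and 3.53 against 4.05, 4.56 and 4.49 in NIL-DOG1, changes of -1.06 and -0.99. COR15A measured 3.16, 3.31 and 3.10 in rdo5-1 dry seeds against 3.33, 3.0 and 3.58 in siliques, and 3.16, 3.24 and 3.33 against 3.60, 3.38 and 3.29 in NIL-DOG1. The COR15A groups overlapped, all 18 of its values lay below the array medians, and its changes of -0.11 and -0.18 did not pass. Of the other LEA_4 genes, AT3G02480 fell, with changes of -0.47 in rdo5-1 and -0.84 in NIL-DOG1. UNE15 fell by 1.29 in NIL-DOG1 (adjusted p = 0.00173), and its value of -0.53 in rdo5-1 did not pass (adjusted p = 0.163). AT2G03850, dim on all arrays, was called in NIL-DOG1 at -0.37 and stood at 0.06 in rdo5-1 (adjusted p = 0.757). AT4G13230 and AT2G03740 were below the array median on all 18 arrays and did not pass in either genotype.

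The smaller classes were mixed. In LEA_2, whose members have a folded domain unlike the rest of the family, LEA14 rose by 1.57 in rdo5-1 and 1.55 in NIL-DOG1 and AT2G46140 by 0.82 in each. AT2G44060 of the same class fell, with changes of -2.28 and -2.40, at 6.30, 6.04 and 6.37 in rdo5-1 dry seeds against 8.51, 8.35 and 8.70 in siliques, and 6.03, 6.21 and 6.19 against 8.57, 8.71 and 8.34 in NIL-DOG1. In PvLEA18, AT2G23120 averaged 12.20 ± 0.03 in rdo5-1 dry seeds and 11.29 ± 0.12 in siliques, and 12.05 ± 0.07 and 11.20 ± 0.16 in NIL-DOG1, as mean ± SD of 3 arrays. It rose by 0.90 and 0.86, whereas the dim AT2G33690 did not pass.

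No LEA_3 gene rose. LEA3 averaged 3.16 ± 0.33 in rdo5-1 dry seeds and 5.97 ± 0.39 in siliques, and 3.23 ± 0.22 and 5.95 ± 0.18 in NIL-DOG1 (SD, n = 3 each), changes of -2.81 and -2.72. SAG21, an organelle-targeted protein also known as a senescence and oxidative stress gene, fell, with a change of -0.67 in rdo5-1 (SE 0.22, adjusted p = 0.0152) and -1.62 in NIL-DOG1 (SE 0.22, adjusted p = 6.3e-06). DI21, named for induction by drought, was bright at every stage and did not pass, at 9.27, 9.31 and 9.0 in rdo5-1 dry seeds against 8.90, 8.59 and 9.43 in siliques, and 8.97, 8.86 and 9.12 against 9.12, 8.68 and 9.16 in NIL-DOG1. AT3G53770 was dim throughout. The 2 unclassified genes were called in NIL-DOG1 alone, AT5G38760 at -0.88 (adjusted p = 0.0376; -0.52 and adjusted p = 0.223 in rdo5-1) and the dim AT5G53820 at 0.52 (adjusted p = 0.049; 0.20 and adjusted p = 0.468). The test of whether the change differed between genotypes called 0 of 52 members by limma, with 8 at an unadjusted p under 0.05, against 0.05% called and 7.34% at that unadjusted threshold over all genes.

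**Figure D1:**
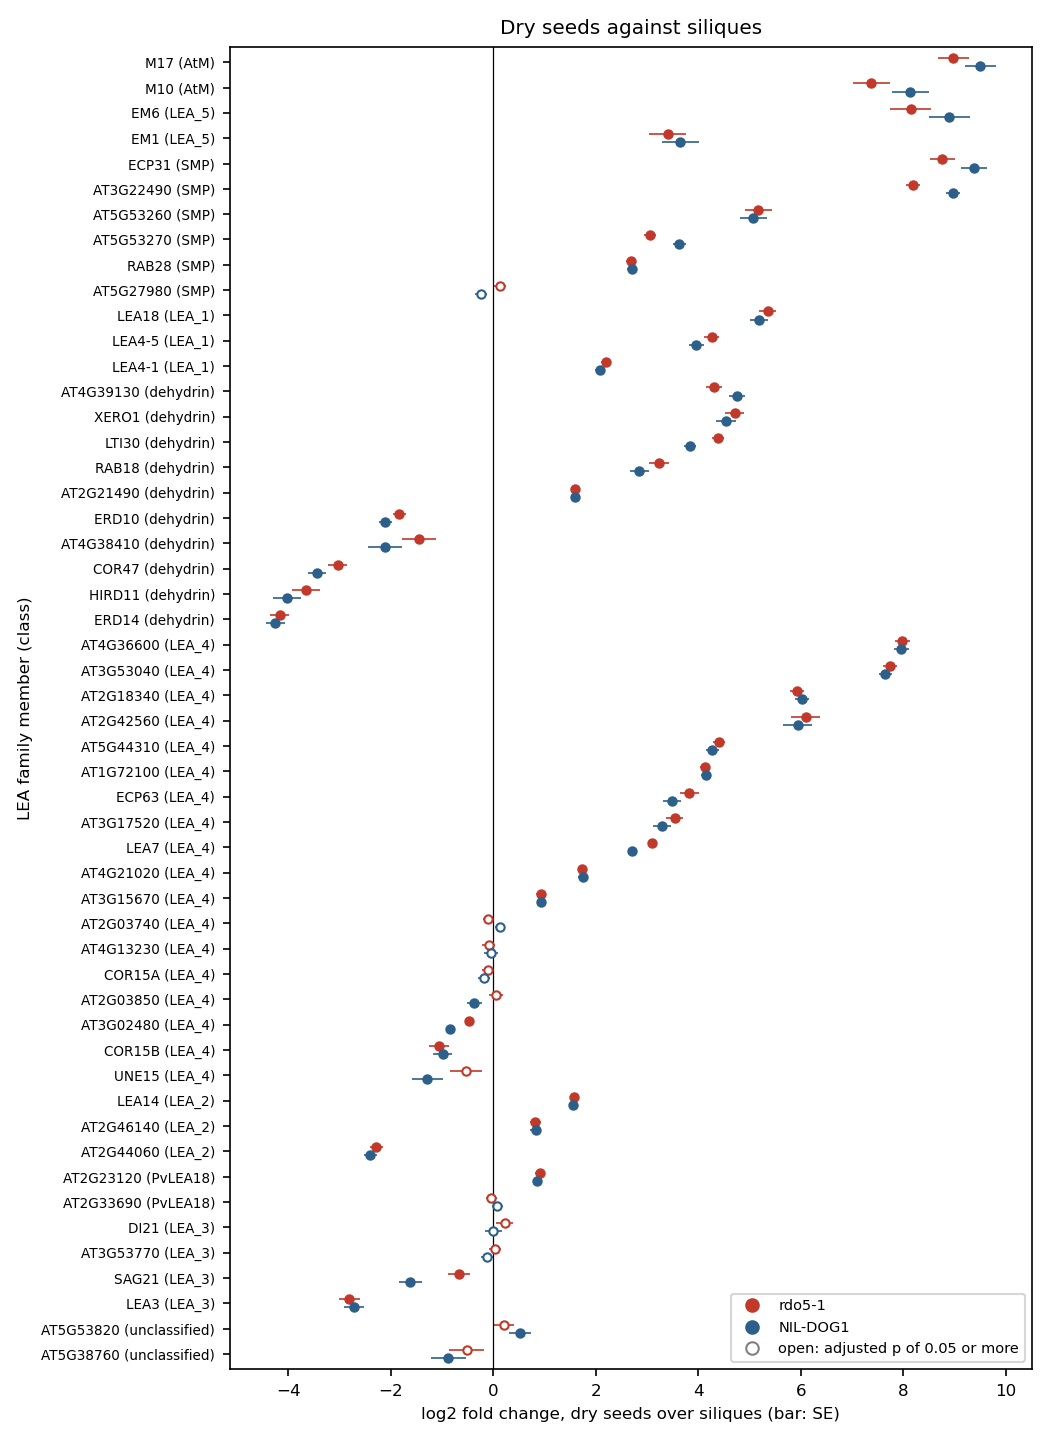
Points give the log2 fold change of dry seeds over siliques for each member, by class, in rdo5-1 (red) and NIL-DOG1 (blue), with bars for the SE and open points for an adjusted p of 0.05 or more. The points run from -4.25 for ERD14 to 9.50 for M17, both in NIL-DOG1, and the genotypes' points lie close to each other in nearly every row.

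The stage changes of the 2 genotypes share no arrays. Across the 52 genes, which are not independent replicates, the dry-seed changes in rdo5-1 and NIL-DOG1 had a Pearson r of 0.996 and a Spearman rho of 0.992. The members sit on all 5 chromosomes (10, 16, 10, 8 and 8 genes), and 6 pairs are direct neighbours in TAIR10.1. In 5 of these pairs both genes had the same call in both genotypes, COR15B and COR15A being the exception. Of all 52 members, 31 were higher and 10 lower in both genotypes, and matches between members that are not neighbours were not counted. Whether each probe set was unique to its gene is not given in the sources used here, and signal shared between such close copies was not tested.

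After 6 h of imbibition nearly all of the members that were called against dry seeds were lower. In rdo5-1, 1 member was higher in imbibed than in dry seeds and 13 were lower, against 16.4% and 11.9% of all genes. In NIL-DOG1 0 were higher by limma and 11 were lower, against 14.2% and 10.6% of all genes. At an unadjusted p under 0.05, 1 member (DI21) was higher there, against 18.1% of all genes. The median change was -0.20 in rdo5-1 and -0.17 in NIL-DOG1, against -0.042 and -0.016 for all genes. Imbibed arrays lay wholly below the dry-seed arrays for 23 members in rdo5-1 and 26 in NIL-DOG1, against 20.4% and 17.9% of all genes, and wholly above them for 2 and 4 members, against 21.5% and 20.3%. All 31 members that rose in dry seeds still lay above the siliques on every imbibed array of their genotype. The 7 that rose by more than 7 log2 units included none called on imbibition, with changes of -0.37 to 0.13 in rdo5-1 and -0.30 to 0.17 in NIL-DOG1. Yet ECP31, AT3G22490, AT3G53040 and AT4G36600 had every imbibed array below the dry-seed arrays in both genotypes. M10 and EM6 overlapped in both, and M17 lay wholly above in NIL-DOG1. The ECP31 changes of -0.31 and -0.19 had an SE of 0.25, against SDs of 0.01 to 0.03 in its dry and imbibed groups. The fit shares the spread of all groups, and the ECP31 silique SD was 0.82 in rdo5-1.

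EM1, EM6, M17 and RAB18 were among the members that did not pass in either genotype, though M17, at 13.17, 13.24 and 13.36 in NIL-DOG1 imbibed seeds, lay above its dry arrays on all 3 (0.17, adjusted p = 0.774). EM6 measured 14.06, 14.04 and 14.04 in rdo5-1 imbibed seeds, and 14.04, 14.05 and 14.12 in NIL-DOG1 imbibed seeds, its changes being 0.04 and -0.02. RAB18 measured 14.30, 14.24 and 14.30 in rdo5-1 imbibed seeds and 14.25, 14.27 and 14.31 in NIL-DOG1 imbibed seeds, at changes of 0.00 and -0.01. For EM6 and RAB18 the imbibed and dry arrays overlapped in each genotype. The 95% intervals of the EM6 changes reached from -0.82 to 0.90 and from -0.88 to 0.84, wide because the fit shares the spread of all groups and the silique arrays scattered. ECP63 had values of 0.33 in rdo5-1 (adjusted p = 0.219) and 0.38 in NIL-DOG1 (adjusted p = 0.162), and DI21 of 0.31 (adjusted p = 0.216) and 0.42 (adjusted p = 0.0961), none of which passed. XERO1 and AT4G39130 stood at -0.14 and -0.06 in rdo5-1 and at -0.04 and 0.02 in NIL-DOG1, also short of the threshold.

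The widest fall was that of the SMP gene AT5G53260. It measured 7.15, 7.19 and 7.23 in rdo5-1 imbibed seeds against 9.86, 10.12 and 9.46 in rdo5-1 dry seeds, and 7.69, 7.80 and 7.91 in NIL-DOG1 imbibed seeds against 10, 9.78 and 10.08 in NIL-DOG1 dry seeds. The change was -2.62 (SE 0.27, adjusted p = 1.44e-06) and -2.16 (SE 0.27, adjusted p = 1.39e-05), with no overlap between imbibed and dry arrays in either genotype. Its neighbour AT5G53270 changed by -0.44 in rdo5-1 (adjusted p = 0.00817) and by -0.26 in NIL-DOG1 (adjusted p = 0.127). RAB28, also of the SMP class, measured 9.74, 9.70 and 9.80 in imbibed against 10.91, 10.85 and 10.92 in dry seeds of rdo5-1, and 10.09, 10.04 and 10.14 in imbibed against 10.94, 11.11 and 10.92 in dry seeds of NIL-DOG1. Its changes were -1.15 and -0.90, again with the arrays of each genotype fully apart.

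Among LEA_4 genes, UNE15, AT2G18340, AT5G44310, AT4G21020 and AT3G02480 fell in both genotypes. UNE15 averaged 4.38 ± 0.53 in rdo5-1 imbibed seeds and 6.03 ± 0.63 in rdo5-1 dry seeds, and 4.39 ± 0.27 and 5.86 ± 0.29 in NIL-DOG1, changes of -1.64 and -1.47. AT2G18340 averaged 10.35 ± 0.26 in imbibed and 11.35 ± 0.08 in dry seeds of rdo5-1, and 10.57 ± 0.18 and 11.35 ± 0.04 in NIL-DOG1 (SD, n = 3 each), changes of -0.9985 and -0.78. The other falls common to both genotypes were narrower: the dehydrins LTI30 (-0.72 and -0.51) and AT2G21490 (-0.29 and -0.22), and AT5G44310 (-0.54 and -0.46), AT4G21020 (-0.42 and -0.34) and AT3G02480 (-0.37 and -0.44). AT2G42560 changed by -0.72 in rdo5-1 without passing (adjusted p = 0.0752), and there 1 array stood apart, the values being 10.37, 8.94 and 10.47. The unclassified AT5G38760 followed the same array order as UNE15 in rdo5-1 imbibed seeds, both lowest on the third array at 3.33 and 3.77.

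Calls made in 1 genotype alone were AT5G38760 (-1.02), AT5G53270 (-0.44), AT1G72100 (-0.31) and LEA7 (-0.27) among the falls of rdo5-1, and SAG21 (-1.03, adjusted p = 0.0018) and ERD14 (-0.92, adjusted p = 0.000931) among those of NIL-DOG1. AT2G46140, a LEA_2 gene, was the member that rose in rdo5-1, by 0.35 (SE 0.10, adjusted p = 0.0186), against a value of 0.09 in NIL-DOG1 (adjusted p = 0.614). The test of the difference itself called none of them: over the 52 members the genotype effect differed between imbibed and dry seeds for 0 by limma, with 1 at an unadjusted p under 0.05, against 0.02% called and 6.49% at that unadjusted threshold over all genes. That 1 member was ERD14, at 0.72 (SE 0.25, adjusted p = 0.598).

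**Figure D2:**
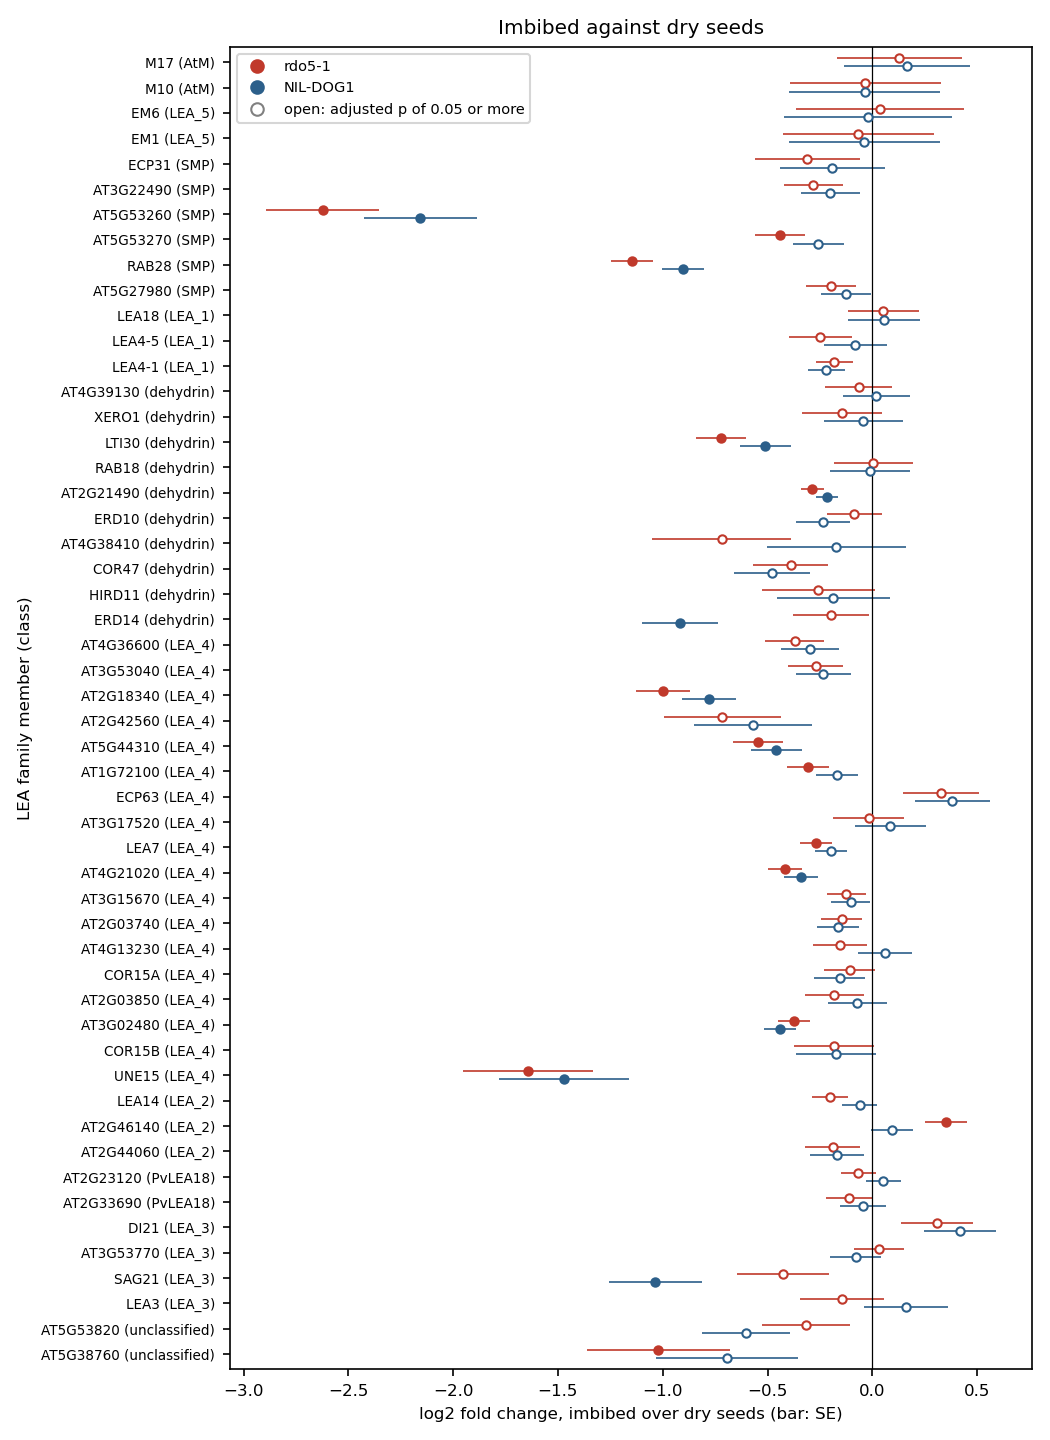
Points give the log2 fold change of imbibed over dry seeds for each member in rdo5-1 (red) and NIL-DOG1 (blue), with bars for the SE and open points for an adjusted p of 0.05 or more. Most points lie between -0.5 and 0.5, and AT5G53260 stands alone at -2.62 in rdo5-1 and -2.16 in NIL-DOG1.

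Between rdo5-1 and NIL-DOG1 at the same stage, few members were called. In siliques limma called 1 of 52, against 0.2% of all genes, and 7 had an unadjusted p under 0.05, against 8.89%. The median difference was -0.09, with 20 members above 0 and 32 below. Without the second NIL-DOG1 silique array, which was the highest of its group for 31 of the 52 members, the median was -0.03 with 23 above and 29 below. The groups' arrays did not overlap for 9 members (2 higher and 7 lower), or 17.3%, against 12.5% of all genes.

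The member called in siliques was AT3G22490 of the SMP class, at 4.84, 4.94 and 5.29 in rdo5-1 against 3.91, 4.61 and 4.39 in NIL-DOG1. These values are low, below the array median on 1 array, and their background was not measured. The rdo5-1 arrays all lay above the NIL-DOG1 arrays, by 0.72 on average (SE 0.14, adjusted p = 0.0444). This call rested on the spread shared across stages: among the 6 silique arrays alone the adjusted p was 0.655, and it passed with 2 of the 18 arrays left out in turn, the range being 0.0105 to 0.139 over those 18. The other members that rose by more than 7 log2 units in dry seeds had silique differences of 0.76 (M10), 0.68 (EM6), 0.61 (ECP31), 0.41 (M17), -0.04 (AT4G36600) and -0.13 (AT3G53040), with adjusted p between 0.491 and 0.973 and overlapping arrays. On the third rdo5-1 silique array 6 of these 7 were at their group's highest, EM6 at 7.23 and M10 at 7.61, while 12 of the other 24 members that rose were at their lowest there. Without that array EM6 differed by -0.000313, M10 by 0.11, ECP31 by 0.22 and M17 by 0.16. Without the first rdo5-1 silique array the differences were 1.266 for EM6, 1.25 for M10, 0.61 for M17 and 1.035 for ECP31, which was then called (adjusted p = 0.00989). M17 also moved to 0.07 without the first and to 0.90 without the second NIL-DOG1 silique array, and was called in neither case.

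LTI30 and LEA7 came next in siliques, both lower in the mutant and neither passing. LTI30 measured 6.43, 6.09 and 6.28 in rdo5-1 against 6.95, 6.45 and 6.77 in NIL-DOG1, a difference of -0.46 (SE 0.12, adjusted p = 0.21). LEA7 measured 10.36, 10.40 and 10.39 in rdo5-1 against 10.82, 10.70 and 10.50 in NIL-DOG1, a difference of -0.29 (SE 0.08, adjusted p = 0.212). The groups did not overlap for either gene, though for LTI30 the gap between the nearest arrays was narrow.

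In dry seeds 0 of 52 members were called by limma, against 0.137% of all genes, and 4 had an unadjusted p under 0.05, against 8.34%. The median difference was 0.01. For the 31 members that rose toward dry seeds, every 95% interval of the difference lay within 1 log2 unit of 0. Of these intervals, 22 lay within 0.5. Dry-seed values of these 31 members ran between 7.88 and 14.33, against a highest value of any gene of 14.67. Whether closeness to that top narrowed the differences or the spread between arrays was not tested. No overlap between rdo5-1 and NIL-DOG1 arrays was seen for 17 members (9 higher and 8 lower), or 32.7%, against 14.7% of all genes. Dry-seed arrays of the family were closely grouped, with a median SD of 0.09 in rdo5-1 and 0.064 in NIL-DOG1 against 0.107 and 0.111 over all genes. Some of the separated differences were small, as for EM6 (-0.08) and AT3G22490 (-0.06). In siliques the order was the other way, with a median member SD of 0.236 in rdo5-1 and 0.186 in NIL-DOG1 against 0.115 and 0.125.

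The lowest adjusted p in dry seeds were those of AT5G53270, AT3G02480 and SAG21. AT5G53270 measured 8.20, 8.12 and 7.88 in rdo5-1 against 8.42, 8.62 and 8.53 in NIL-DOG1 (-0.45, adjusted p = 0.183). AT3G02480 measured 12.18, 12.14 and 11.98 in rdo5-1 against 11.89, 11.86 and 11.89 in NIL-DOG1 (0.22, adjusted p = 0.422). SAG21 measured 9.0, 9.28 and 9.15 in rdo5-1 against 8.96, 8.32 and 8.46 in NIL-DOG1 (0.57, adjusted p = 0.473). None of the 3 overlapped between genotypes, though the lowest rdo5-1 array of SAG21 was only just above the highest NIL-DOG1 array.

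In imbibed seeds 2 of 52 members were called, against 0.633% of all genes, and 7 had an unadjusted p under 0.05, against 8.31%. The median difference was -0.04, and 13 members did not overlap (4 higher and 9 lower), or 25%, against 15.5% of all genes. SAG21 was higher in the mutant, at 9.12, 8.42 and 8.62 in rdo5-1 against 7.66, 7.56 and 7.40 in NIL-DOG1, a difference of 1.17 (SE 0.22, adjusted p = 0.0188). AT5G53270 was lower, at 7.48, 7.83 and 7.57 in rdo5-1 against 8.37, 8.19 and 8.23 in NIL-DOG1, a difference of -0.64 (SE 0.12, adjusted p = 0.0162). The arrays of the genotypes were clear of each other for both genes. SAG21 lost its call without each of 5 of the 6 imbibed arrays (adjusted p up to 0.109) and AT5G53270 without each of 4 (adjusted p up to 0.105), with the direction kept throughout. Both had the same sign in dry seeds, and the genotype effect did not differ between imbibed and dry seeds by test (SAG21 0.61, adjusted p = 0.794; AT5G53270 -0.18, adjusted p = 0.933).

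ERD14 stood just outside the threshold in imbibed seeds. It measured 5.51, 4.83 and 5.56 in rdo5-1 against 4.38, 4.25 and 4.84 in NIL-DOG1, a difference of 0.81 (SE 0.18, adjusted p = 0.0534) with 1 rdo5-1 array at the level of the highest NIL-DOG1 array. The other dehydrins that fell toward dry seeds had differences of 0.34 (COR47), 0.29 (HIRD11), 0.19 (ERD10) and -0.11 (AT4G38410), with adjusted p of 0.692 or more. The 5 dehydrins that rose toward dry seeds stood between -0.32 and 0.00. AT5G53260, the neighbour of AT5G53270, differed by -0.61 (SE 0.27, adjusted p = 0.553) with no overlap between 7.15, 7.19 and 7.23 in rdo5-1 and 7.69, 7.80 and 7.91 in NIL-DOG1. RAB28 of the same class differed by -0.34 (adjusted p = 0.203), again without overlap.

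**Figure D3:**
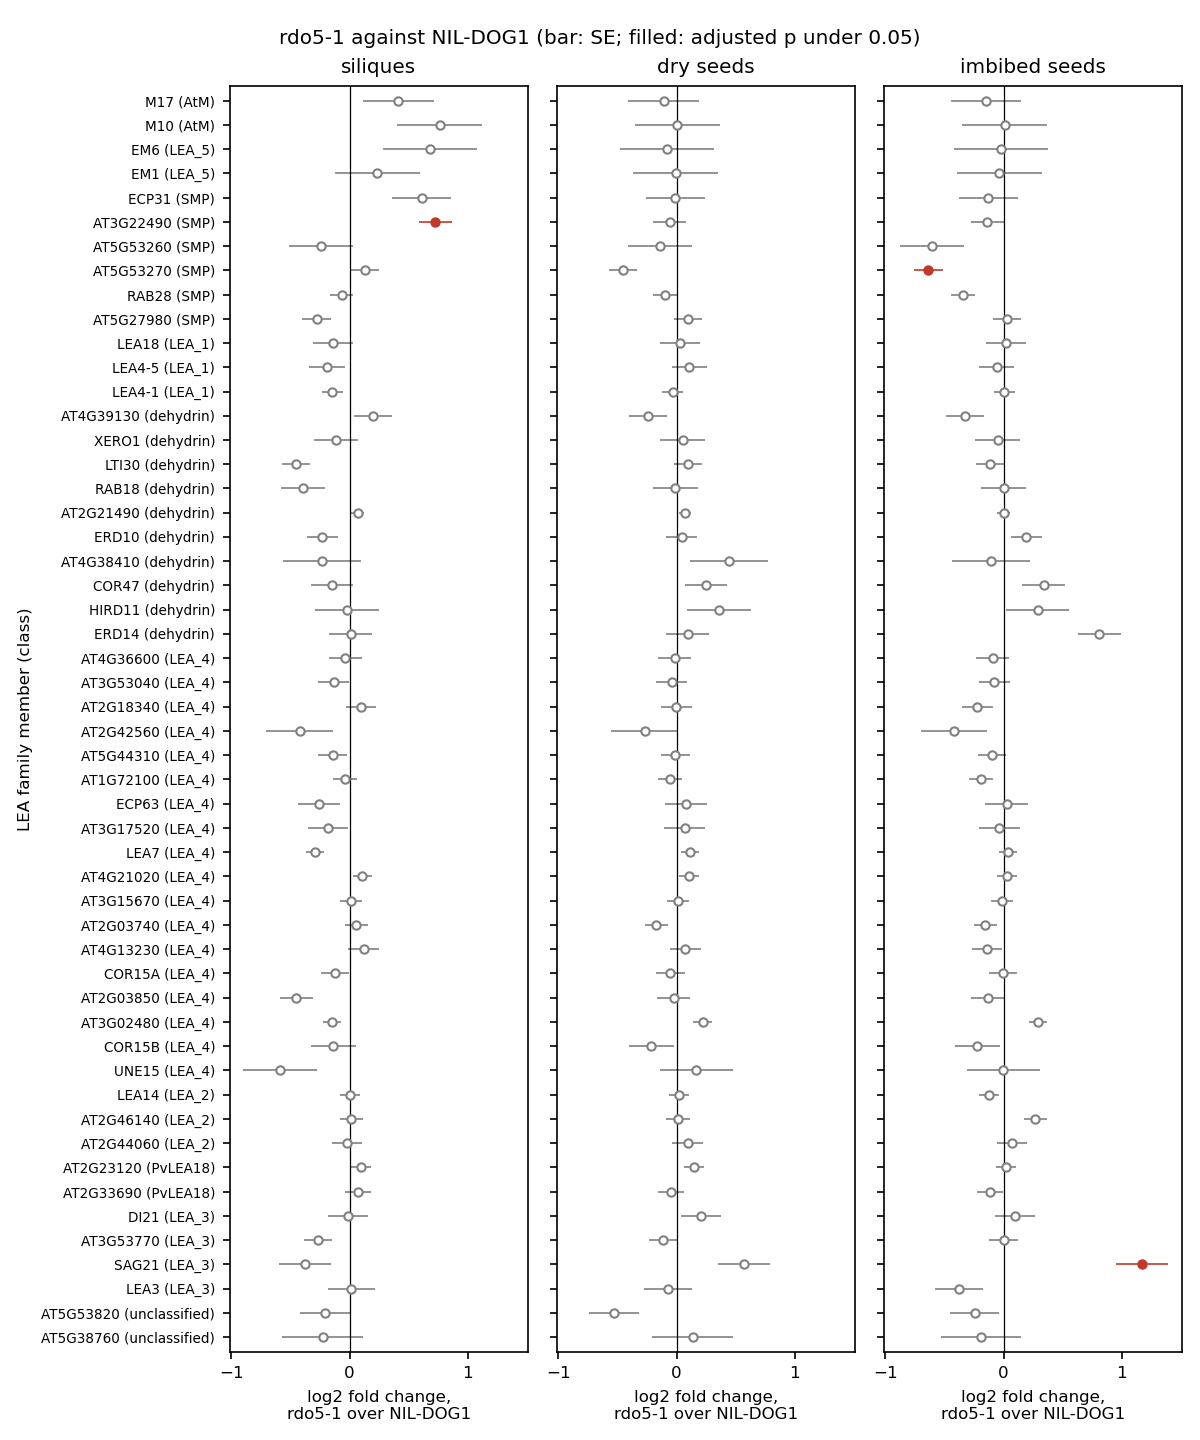
Points give the log2 fold change of rdo5-1 over NIL-DOG1 for each member in siliques, dry seeds and imbibed seeds, with bars for the SE and filled red points for an adjusted p under 0.05. The filled points are AT3G22490 in siliques (0.72) and SAG21 (1.17) and AT5G53270 (-0.64) in imbibed seeds, and no point is filled in dry seeds.

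**Figure D4:**
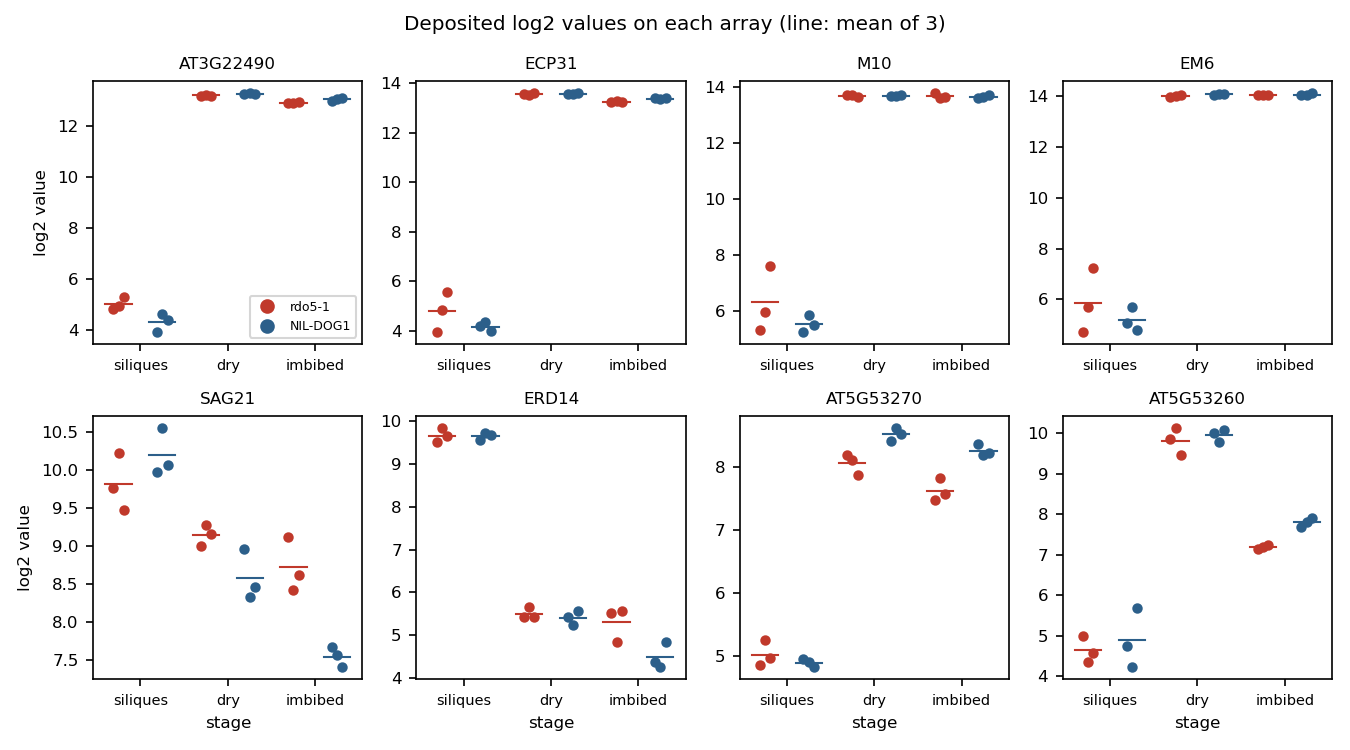
Each panel gives the deposited log2 value of a member on every array at the 3 stages, rdo5-1 in red and NIL-DOG1 in blue, with a line at the mean of 3 and a scale of its own. AT3G22490, ECP31, M10 and EM6 lie between 3.91 and 7.61 in siliques and above 12.9 in seeds, while SAG21, ERD14, AT5G53270 and AT5G53260 show the genotypes apart or nearly so in imbibed seeds.

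The genes known to act on this family were read beside it. Of 12 seed maturation regulators (the 13th listed, ABI5, was not analysed here), 1 was higher and 8 lower in rdo5-1 dry seeds than in siliques, against 27.2% and 25.7% of all genes. In NIL-DOG1 3 were higher and 7 lower, against 27.4% and 26.6% of all genes. The falls included bZIP67 (-3.44 in rdo5-1 and -3.48 in NIL-DOG1), L1L (-3.56 and -3.41), FUS3 (-2.61 and -2.37) and EEL (-1.70 and -1.77). All are transcription factors of embryo maturation, and EEL is known as a regulator of EM1. ABI3 went the other way and was called higher in both genotypes (0.66 in rdo5-1 and 0.52 in NIL-DOG1). In NIL-DOG1 alone bZIP10 (0.24) and bZIP53 (0.17) were also higher. On imbibition bZIP67 fell further (-1.26 and -0.80), and ABI4, a factor of abscisic acid signalling in seeds, rose by 1.23 and 0.67. ABI3 rose by 0.27 in rdo5-1, and its value of 0.22 in NIL-DOG1 did not pass. ABI4 was also the regulator that differed by genotype in imbibed seeds, by 0.59 (SE 0.11, adjusted p = 0.0162).

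Among 9 regulators of vegetative cold and drought responses, 3 were higher and 1 lower in rdo5-1 dry seeds than in siliques, and 4 were higher and 3 lower in NIL-DOG1. The shares of all genes are those given beside the seed maturation regulators. DREB2A, a drought and heat factor, rose by 4.36 and 4.27, and ABF4, a factor of abscisic acid response, by 1.32 and 1.40. ICE1 rose by 1.20 and 1.16, and CBF2 by 0.44 in NIL-DOG1 alone. ABF3 was called lower in both genotypes (-0.32 and -0.68), and ABF2 (-0.47) and CBF3 (-0.28) in NIL-DOG1 alone. The median change of the list was -0.04 in rdo5-1 and -0.11 in NIL-DOG1. Of 10 cold and drought responsive genes outside the family, 4 rose and 6 fell in both genotypes, against those same shares of all genes. RD29B rose by 5.60 and 5.30 and ADH1 by 4.02 and 3.96. The widest falls were those of RD20 (-5.43 and -5.76), KIN2 (-4.60 and -4.31), RD22 (-3.81 and -3.75) and KIN1 (-2.58 and -2.49). The median change of the list was -1.14 in rdo5-1 and -1.32 in NIL-DOG1. None of these 10, and none of the 9 regulators, was called between the genotypes at any stage by limma. Over all genes 0.2%, 0.137% and 0.633% were called in siliques, dry seeds and imbibed seeds. At an unadjusted p under 0.05 there were 0 of the 10 and, in the same order, 1, 2 and 2 of the 9. That threshold took 8.89%, 8.34% and 8.31% of all genes.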

How the data were processed

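Total RNA of 18 samples was hybridised to Affymetrix arrays, and the deposited table holds 1 log2 value per gene and array, made by the authors with RMA (background correction, normalization between arrays and summary per probe set) per the submitters' processing notes. For the genome build and for the probe set definition, nothing is given in the sources used here. Every sample column was assigned to a sample by its label, and 0 were left over. Genes are named by locus code and by symbols of the TAIR10.1 gene table, which matched 29464 of 30014 codes.

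Each gene was fitted with 1 mean per group over all 18 arrays with lmFit and eBayes of limma 3.58.1 under R 4.3.3, with p-values adjusted by Benjamini and Hochberg over all genes of a comparison. There were 7 comparisons between groups and 2 differences of genotype effects. No filter was set on low values. The test was checked on simulated data. Arrays give no counts. The precision is limited by the 3 arrays in each group.

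The members, the marker lists and the lists of regulators and stress genes were chosen with earlier results of these data known. Values on every array are given for members called between genotypes, for the 3 of lowest adjusted p at each stage, for the widest stage changes (or as mean and SD), for 1 member per class and for 11 well-known members. The alternatives were quantile normalization, median centring, leaving out the 30% dimmest genes, trended and robust eBayes, only the arrays compared, the replicate number as a block, array weights, a fold threshold, and leaving out each array in turn.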

Additional observations from a re-analysis of the deposited data

Results flagged for a closer look

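AT3G22490 was higher in rdo5-1 on every silique array and lower in rdo5-1 on every dry and imbibed array. In siliques its genotype difference was 0.72, against -0.06 for dry and -0.14 for imbibed seeds. The dry-seed difference minus the silique difference was -0.78, which did not pass in the limma test of that difference (SE 0.19, adjusted p = 0.245). The imbibed-seed difference minus the silique difference was -0.86 and was not tested. LEA7 ran the other way, lower in rdo5-1 on every silique array (-0.29) and higher on every dry-seed array (0.11), and the difference of 0.40 did not pass (SE 0.11, adjusted p = 0.352).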

How the results depend on the processing

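Dry-seed calls were stable: with each array left out in turn, 31 to 32 members were higher and 9 to 10 lower in rdo5-1, and 31 to 32 higher and 11 to 13 lower in NIL-DOG1. Of the named calls, 40 of 41 in rdo5-1 and 42 of 45 in NIL-DOG1 held under every alternative other than the fold threshold, SAG21 in rdo5-1 and AT5G38760, AT5G53820 and AT2G03850 in NIL-DOG1 being the exceptions. On imbibition, 0 to 1 members were higher and 11 to 15 lower in rdo5-1, and 0 to 1 higher and 11 to 12 lower in NIL-DOG1, and 10 of 14 and 10 of 11 named calls held in the same sense. LEA7, AT1G72100, AT2G46140 and AT5G38760 were lost in rdo5-1 under some settings, and AT2G21490 in NIL-DOG1. The member higher in rdo5-1 was not called after quantile normalization, which gave 0. With only the arrays compared, 2 members were higher in imbibed NIL-DOG1 seeds, and 17 were lower in rdo5-1 and 14 in NIL-DOG1. A fold threshold of 1 log2 unit left 28 members higher and 8 lower in rdo5-1 dry seeds, 28 higher and 9 lower in NIL-DOG1 dry seeds, 0 higher and 4 lower on imbibition in rdo5-1 and 3 lower in NIL-DOG1. Genotype calls were the least stable. Leaving out arrays gave 0 to 2 members in siliques, 0 in dry seeds and 0 to 3 in imbibed seeds, and 0 for both differences of genotype effects. The fold threshold left 0 in siliques and 1 in imbibed seeds, and the fit to only the arrays compared left 0 in each. AT3G22490 was called in 8 of 25 settings, SAG21 in 19 and AT5G53270 in 20, and ERD14, uncalled in the chosen fit, in 5. ECP31 was called in siliques in 1 setting (adjusted p = 0.00989). Uncalled silique differences changed sign for EM6 (-0.000313 to 1.266 with arrays left out in turn, the lowest without rdo5-1 silique array 3), AT3G53040 (-0.2389 to 0.001083, the highest without rdo5-1 silique array 1) and AT4G36600 (0.04925 with array weights, and -0.1711 to 0.1384 with arrays left out, the highest without NIL-DOG1 silique array 3). The cause was not tested. Whether the replicate numbers stand for paired samples is not given in the labels, and same-numbered deviations correlated at -0.05 to 0.17. With the number as a block, 1, 0 and 2 members were called between genotypes in siliques, dry and imbibed seeds. That fit called 31 and 32 members higher and 10 and 13 lower in dry seeds, and 14 and 12 lower on imbibition. Centring each array moved the median dry-seed change of all genes to 0.29 in rdo5-1 and 0.30 in NIL-DOG1, and that of the members to 1.89 and 1.92. Background was not measured, and 7 members lay below the array median on all 18 arrays.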
